A study of Mus musculus with 4 samples.

Results

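The 5S ribosomal RNA (5S rRNA) gene copies of the mouse were examined in RNA immunoprecipitation (RIP) libraries from adult testis. The members are the gene models whose symbol starts with n-R5s, 180 of the 50600 models in the files. The rule uses the symbol alone and no measured value. 5S rRNA is the small RNA of the large ribosomal subunit that is made by RNA polymerase III, from genes repeated in tandem, through a promoter inside the gene that is bound by TFIIIA. It joins the ribosome as a complex with the proteins RPL5 and RPL11, and its newly made 3' end, like that of other polymerase III transcripts, carries a run of uridines that the La protein binds. LARP7 is a La-related protein known for binding the 3' end of 7SK and U6, which are polymerase III transcripts too.

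There were 2 groups of 2 libraries, all from testes of 8-week-old C57BL/6 mice with no other treatment named: LARP7 RIP (antibody to LARP7, replicates 1 and 2) and IgG RIP (non-specific IgG, replicates 1 and 2), which measures RNA that sticks to antibody and beads. The series calls the replicates biological, and its labels do not say whether each came from another animal, so p-values measure the spread between these libraries only. A kit for small RNAs was used, with size selection of 15 to 300 nt, so long RNAs could be seen only as fragments. Whole testis was lysed, and fewer cells of a type and less RNA per cell cannot be told apart.

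Expected counts (RSEM's estimates, in which reads that match several models are divided between them) reached totals of 6918040 and 6502682 with the LARP7 antibody, against 6994514 and 4411271 with IgG. All 9 germ cell markers examined were above 0 in every library. Their summed level was 226 and 180 CPM (counts scaled to a common library size, here by library totals) with the LARP7 antibody, and 1680 and 1465 CPM with IgG. The 8 markers of somatic testis cells summed to 23.1 and 27.8 CPM with the LARP7 antibody, against 96.4 and 81.4 CPM with IgG, and the 4 blood markers to at most 5.72 CPM in any library. On library totals the median log2 fold change of all rows was itself -1.47, so lower values were shared by most rows. The summed germ cell markers fell by more than that median, and the somatic ones lay nearer to it. The blood markers overlapped, at 4.29 and 3.08 CPM with the LARP7 antibody and 5.72 and 1.36 CPM with IgG. The part of these markers in the values given here was not tested.

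Most of the 180 models were at 0 or could not be told apart. There were 99 models at 0 in all 4 libraries and 81 with a count. Models were 79 to 132 nt long, and 119 nt was the most common length, shared by 63 of the 81 with a count and 18 of the 99 at 0. Of these 81, 36 fell into 5 groups whose members had identical expected counts in all 4 libraries, and 45 had counts of their own. Each group and each such single copy is treated here as 1 unit, which gives 50 units. Copies in a group share their reads, so their number is not a number of independent measurements. Among the single copies, 13 had at least 100 counts over all libraries together and 21 had fewer than 10.

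Of the 81 counted copies, 41 lay in a tandem array on chromosome 8. RefSeq's gene list for GRCm38.p6, which the build name mm10 stands for, held 69 of the 180 members, 51 as rRNA and 18 as pseudogenes. All 51 of the rRNA entries had a count, and 10 of the 18 pseudogenes did. The array ran from 123538784 to 123622046 on chromosome 8 (mm10, as are all positions here), a stretch of 83.3 kb, and all 41 of its members had a count. Another 8 models with other names (Rn5s, Gm25018, Gm24312, Gm26391, Gm22109, Gm25212, Gm22291 and Gm23284) lay among them, so the array held 49 copies, with a median distance of 1698 bases from start to start. These 8 models carried counts identical to those of a member group, 7 of them to the largest. They are outside the family by the naming rule, although their reads cannot be told apart from those of the members.

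The largest group had 25 members, all in the array, named here after n-R5s100, its lowest-numbered copy. Each of its models was given 1048 and 1711 counts in the LARP7 libraries, against 4006 and 2309 in the IgG libraries. Together the 25 models had 26188 and 42778 counts with the LARP7 antibody, against 100140 and 57722 with IgG. The group held 91.1% ± 0.848 of the family's counts in the LARP7 RIP and 90.5% ± 0.213 in the IgG RIP (SD, n = 2 each). The other groups were far smaller: 3 copies with n-R5s106, 3 with n-R5s112, 3 with n-R5s114 and 2 with n-R5s101, all in the array. With its 7 companions of other names, the largest group filled 32 of the 49 places of the array. Of the last 17 places, 16 belonged to it, while of the 32 places before them 16 did. RefSeq gives 121 nt to 31 of these 32 copies and 119 nt to 1, while in the files every one of them is a model of 119 nt.

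By place, the share held by the array differed between antibodies by less than the spread between IgG replicates. The array held 98.5% ± 0.000919 of the family's counts in the LARP7 RIP and 98.5% ± 0.173 in the IgG RIP (SD, n = 2 each). The 139 other members, of which 40 had a count, held 1.54% ± 0.00094 with the LARP7 antibody and 1.51% ± 0.173 with IgG. Within these, the members that RefSeq does not place held 0.387% ± 0.0202 of the family with the LARP7 antibody and 0.181% ± 0.00311 with IgG. The copy n-R5s205 alone made up 0.283% ± 0.0197 of the family with the LARP7 antibody and 0.0533% ± 0.00675 with IgG, more than the whole of that difference.

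The question for the family as a whole was whether LARP7 complexes held more 5S rRNA than the IgG background. The family had 28931 and 46641 counts in the LARP7 libraries, against 110504 and 63908 in the IgG libraries. That was 0.418% (95% Wilson interval 0.413 to 0.423) and 0.717% (0.711 to 0.724) of all counts with the LARP7 antibody, against 1.58% (1.57 to 1.59) and 1.45% (1.44 to 1.46) with IgG. These intervals cover counting error only. As a share of everything sequenced, 5S rRNA was thus lower in both LARP7 libraries than in either IgG library, at 0.568% ± 0.211 against 1.51% ± 0.0927 (SD, n = 2 each). With 2 libraries against 2, the smallest exact two-sided permutation p is 0.333, so no test was made on shares.

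A share also falls when other RNAs take more of a library, and counts were therefore scaled by TMM, which sets the bulk of genes level. The TMM factors differed widely, at 0.56 and 0.673 with the LARP7 antibody against 1.84 and 1.44 with IgG. On that scale the family sum was 7473 and 10661 CPM with the LARP7 antibody, against 8579 and 10046 CPM with IgG. The groups overlapped, and the spread within the LARP7 RIP was wider than the distance between the means, 9067 ± 2254 and 9312 ± 1038 CPM (SD, n = 2 each). The log2 fold change was -0.04 (SE 0.76, edgeR adjusted p = 0.974), which turned to 0.03 with RLE size factors. With library totals in place of TMM it was -1.42 (SE 0.73, edgeR adjusted p = 0.095), on a scale that put the median of all 12181 rows at -1.47 rather than -0.05. The family thus lay close to the median row under either scaling. A missed threshold with so large an SE does not show that the antibodies gave equal levels. The largest group alone had 8271 ± 2127 CPM with the LARP7 antibody and 8423 ± 917 CPM with IgG. Limma on the authors' TPM gave -2.67 (adjusted p = 0.0041 with a pseudocount of 0.1 and 0.056 with 1), where the median row was at -1.24 with 0.1.

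**Figure D1:**
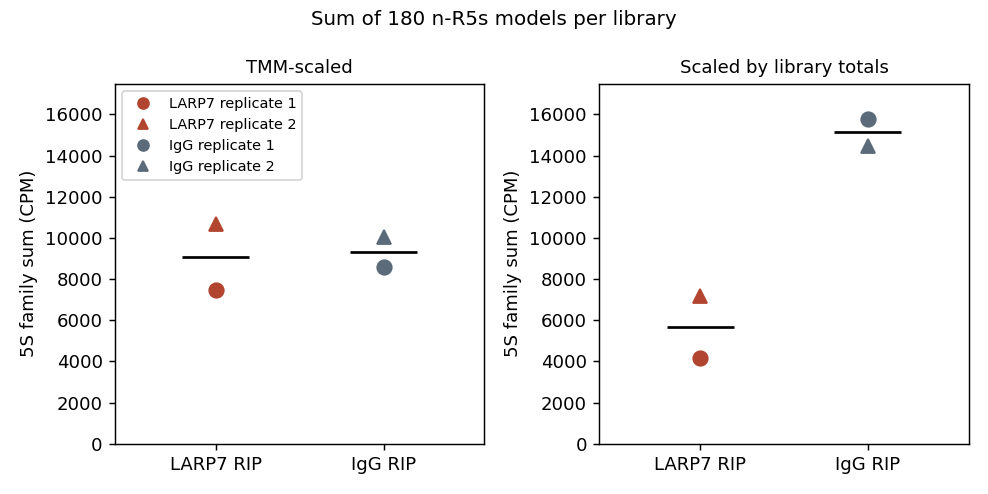
Sum of the 180 n-R5s models in each library, in CPM, scaled by TMM (left) or by library totals (right). Points are libraries and lines are means of 2. With TMM the LARP7 libraries (7473 and 10661) overlap the IgG libraries (8579 and 10046), while with library totals both lie below them.

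Ratios to other RNAs of the same library do not depend on scaling between libraries. By that measure 5S rRNA was far lower, relative to 7SK and U6, with the LARP7 antibody than with IgG. The 5S family had 0.0914 and 0.0501 counts for each count of Rn7sk (7SK, which keeps the elongation factor P-TEFb inactive) in the LARP7 libraries, against 2.86 and 1.03 in the IgG libraries. That ratio was 25.4-fold lower with the LARP7 antibody, as a mean over the log2 ratios. Rnu6, a U6 copy, had 186 and 797 counts with the LARP7 antibody, against 9.91 and 4.55 with IgG, and the ratio of 5S to it was 131-fold lower. On the TMM scale Rn7sk and Rnu6 were themselves higher with the LARP7 antibody, while the 5S family was at -0.04. Their log2 fold changes were 4.53 (edgeR adjusted p = 0.0167) and 7.17 (edgeR adjusted p = 0.002). The lower ratios alone thus do not show that 5S rRNA itself was lower. Against 7SL, the RNA of the signal recognition particle, the ratio went the other way, with 5.03 and 11.5 counts of 5S for each count of Rn7s1 and Rn7s2 together in the LARP7 libraries, against 2.59 and 3.85 in the IgG libraries. It was 2.41-fold higher, and the groups did not overlap. Rn7s1 and Rn7s2 each had a log2 fold change of -1.30 on the TMM scale (SE 0.69, edgeR adjusted p = 0.185). For the Y RNAs Rny1 and Rny3, for the 5.8S model n-R5-8s1 and for the 18S model Rn18s-rs5, the ratios of the groups overlapped. These are ratios of counts, not of molecules per length, and only their change between antibodies is read here.

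Units of the family were called in both directions, at shares near those over all rows. The filter on low counts was passed by 23 of the 50 units. The other 27 had at most 22.3 counts each and 0.0774% of the family's counts together. A unit that is high in only 1 group can pass on that group alone. Of the units called below, n-R5s13 and n-R5s127 passed through IgG alone and n-R5s151 through LARP7 alone. Their calls go with the group that let them in, and are not support for a direction. Without the filter, n-R5s13, n-R5s127 and n-R5s151 were not called (edgeR adjusted p of 0.0972, 0.101 and 0.0885). With edgeR and an adjusted p under 0.05 over 12203 rows, 5 of the 23 rose and 3 fell with the LARP7 antibody, 21.7% and 13.0% of those tested. Over all rows 14.4% were called higher and 9.65% lower. The median log2 fold change of the 23 was -0.21, against -0.05 for all rows. CPM values of the groups did not overlap for 9 units higher and 9 lower, 39.1% each, against 33.1% and 35.6% of all rows. With library totals, 1 unit was higher and 11 lower, where 3.64% of all rows were higher and 46.4% lower.

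**Figure D2:**
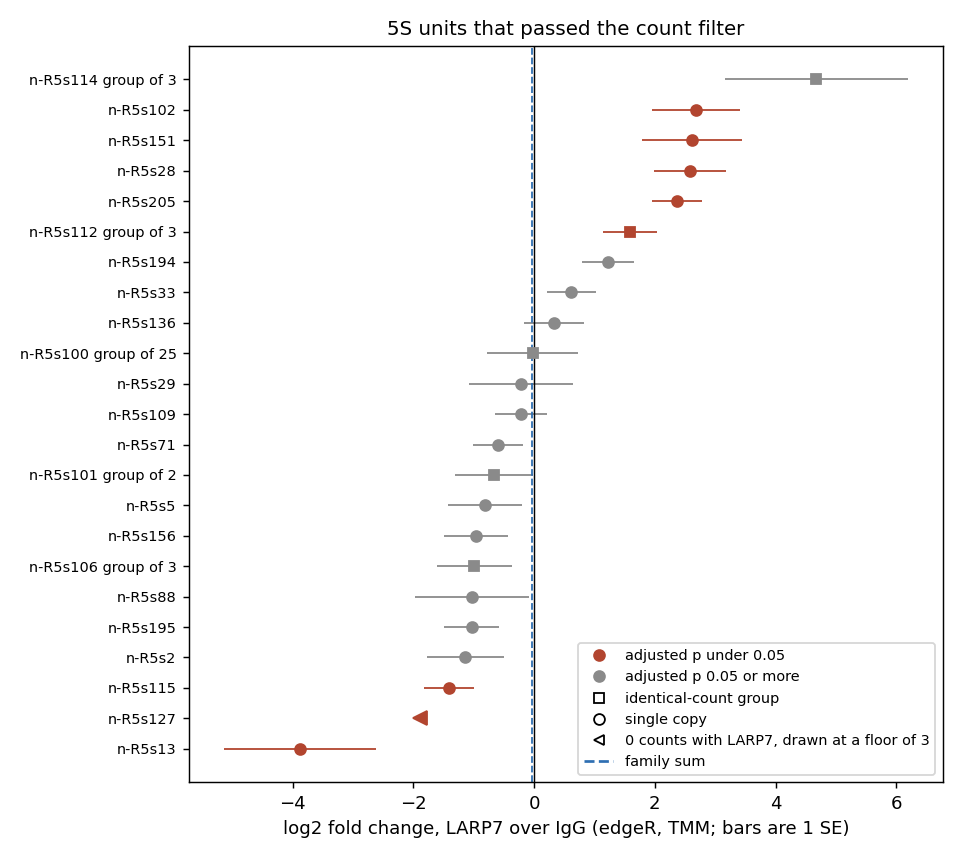
Log2 fold change, LARP7 over IgG, of the 23 units of the 5S family that passed the count filter (edgeR with TMM). Bars are 1 SE, squares are identical-count groups, circles are single copies, and red marks adjusted p under 0.05. A triangle marks n-R5s127, at 0 with the LARP7 antibody, drawn at a floor of 3 counts that covers counting error only. The largest group and the dashed family sum lie close to 0 (log2 fold changes of -0.03 and -0.04), with 9 units above 0 and 14 below it.

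The units called higher are described in order of their CPM. The copy n-R5s102 (ENSMUSG00000096613.1, chromosome 8, 123542178 to 123542296, place 3 of the array) had 300 and 579 counts in the LARP7 libraries, against 74 and 173 in the IgG libraries. It was thus higher with the LARP7 antibody even in plain counts, where the family as a whole was lower. It rose to 105 ± 38.7 CPM, against 16.5 ± 15.2 CPM with IgG (SD, n = 2 each). In edgeR the log2 fold change was 2.69 ± 0.73 (SE), with an adjusted p of 0.0288. With library totals the value was 1.42 and still called (adjusted p = 0.0213). It stayed a call without IgG replicate 2 (4.22). Leaving out LARP7 replicate 1 (edgeR adjusted p = 0.0784), LARP7 replicate 2 (2.24, adjusted p = 0.371) or IgG replicate 1 (1.94, adjusted p = 0.0793) ended it. As a share of the family it was 1.14% ± 0.144 in the LARP7 RIP and 0.169% ± 0.144 in the IgG RIP.

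The group of n-R5s112, n-R5s120 and n-R5s125, at 3 places of the array, had 251 and 290 counts in the LARP7 libraries, against 317 and 120 in the IgG libraries. The counts overlapped and the scaled values did not, at 65.6 ± 0.992 CPM with the LARP7 antibody and 21.7 ± 4.07 CPM with IgG (edgeR log2 fold change 1.59 ± 0.44 SE, adjusted p = 0.0278). With library totals the value was 0.15 (adjusted p = 0.818), so that call rested on the scaling. It was also lost without IgG replicate 1 (adjusted p = 0.0900) or IgG replicate 2 (adjusted p = 0.165).

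The copy n-R5s205 (ENSMUSG00000065083.1, a model of 125 nt that the RefSeq table does not hold) had 86 and 126 counts in the LARP7 libraries, against 64 and 31 in the IgG libraries. Its level was 25.5 ± 4.64 CPM with the LARP7 antibody and 4.92 ± 0.0687 CPM with IgG (edgeR log2 fold change 2.37 ± 0.41 SE, adjusted p = 0.00627). Its call was kept without each of the 4 libraries in turn, with adjusted p between 0.00548 and 0.0173, and n-R5s205 was the only one of the 8 called units of which this was true. With library totals it had 0.97 (adjusted p = 0.122), and with limma on log2(TPM + 1) it turned to -0.22 (adjusted p = 0.859).

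The copy n-R5s28 (ENSMUSG00000064748.1, chromosome 17, 47848834 to 47848952, outside any other RefSeq gene) had 35 and 102 counts with the LARP7 antibody, against 23 and 24 with IgG. It had 16.2 ± 10.1 CPM with the LARP7 antibody and 2.78 ± 1.40 CPM with IgG (edgeR log2 fold change 2.58 ± 0.59 SE, adjusted p = 0.0157). Leaving out LARP7 replicate 2 (1.73, adjusted p = 0.165) or using library totals (1.26, adjusted p = 0.0766) ended the call. The copy n-R5s151 (chromosome 7, 16471813 to 16471931, within the span of Npas1) had only 12 and 16 counts, against 9 and 2 with IgG. Its log2 fold change was 2.61 (SE 0.82, edgeR adjusted p = 0.0391), and it passed the filter through the LARP7 libraries alone. The call was lost with library totals (1.19, adjusted p = 0.308), and when LARP7 replicate 1 (2.74, 0.193), LARP7 replicate 2 (2.52, 0.373) or IgG replicate 2 (2.29, 0.0676) was left out, with the adjusted p second.

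On the authors' TPM, limma called none of these 5 units higher. With a pseudocount of 0.1, n-R5s102 had a log2 difference of 0.40, n-R5s205 of -0.26, n-R5s28 of -0.09, n-R5s151 of 0.04 and the n-R5s112 group of -1.01, with adjusted p from 0.409 to 0.969. All 5 lay above the median row of that scale, -1.24, and for n-R5s205, n-R5s28 and the n-R5s112 group the sign was turned.

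The largest fold change among units with counts in both groups missed the threshold. The group of n-R5s114, n-R5s119 and n-R5s131 had 141 and 405 counts in the LARP7 libraries, against 59 and 0 in the IgG libraries. The IgG replicates thus lay apart, and the log2 fold change was 4.68 (SE 1.52, edgeR adjusted p = 0.102). With all 4 libraries it was called when the filter on low counts was dropped (4.58, edgeR adjusted p = 0.0198). Limma on log2(TPM + 0.1) called it too (4.09, adjusted p = 0.00882). Library totals, RLE, DESeq2, the replicate block, the family sum as library size and limma on log2(TPM + 1) did not (adjusted p from 0.0802 to 0.308). RSEM's posterior SD, its own measure of how uncertain the division of reads is, reached 1.07 times the count for a model of this group where the count was above 0. In IgG replicate 2, where n-R5s114, n-R5s119 and n-R5s131 were at 0, it was 22.2, 22.3 and 18.5 reads, as large as the 19.6 counts each had in IgG replicate 1. It was called when either IgG library was left out, but each such fit sets the LARP7 libraries against 1 IgG library, once at a count of 0, and takes its spread from the LARP7 libraries. The copy n-R5s194 on chromosome 3 just missed the threshold, at 13.3 ± 0.214 CPM with the LARP7 antibody and 5.70 ± 0.380 CPM with IgG (log2 fold change 1.23, edgeR adjusted p = 0.0567). Its counts overlapped, at 51 and 59 with the LARP7 antibody and 70 and 38 with IgG. The sign turned with library totals (-0.18, edgeR adjusted p = 0.808) and with limma on log2(TPM + 0.1) (-1.37), so that value rested on the scaling.

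Of the units called lower, n-R5s115 was the one with more than 100 counts in all. The array copy n-R5s115 (ENSMUSG00000095915.1, chromosome 8, 123564286 to 123564404) had 51 and 75 counts with the LARP7 antibody, against 434 and 299 with IgG. It fell to 15.2 ± 2.80 CPM, against 40.3 ± 9.40 CPM with IgG (edgeR log2 fold change -1.41 ± 0.41 SE, adjusted p = 0.0328). Library totals put the median row at -1.47 and called 46.4% of all rows lower. The call was kept there (-2.78, edgeR adjusted p = 8.19e-06), which is thus no separate support for it. It ended with LARP7 replicate 1 removed (adjusted p = 0.108), with LARP7 replicate 2 removed (0.0629) and with IgG replicate 2 removed (0.185). The copy n-R5s13 (X chromosome, 151777671 to 151777789) had 1 and 0 counts, against 23 and 15 with IgG (edgeR adjusted p = 0.0390), a call lost when any 1 of the 4 libraries was left out (adjusted p from 0.109 to 0.375). The array copy n-R5s127, a pseudogene in RefSeq, was at 0 with the LARP7 antibody in each replicate, against 16 and 10 counts with IgG. EdgeR called it lower (adjusted p = 0.0295), after a filter that it passed through the IgG libraries alone, as n-R5s13 did. RSEM's posterior SD for n-R5s127 was 12.4 and 22.7 reads in the LARP7 libraries, where its count was 0, as large as its counts with IgG, so no fold is given. That call ended, with an adjusted p of 0.246 or 0.344 when LARP7 replicate 1 or 2 was removed and 0.107 when IgG replicate 2 was. With IgG replicate 1 removed the copy did not pass the filter.

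Several sizeable units were lower in both LARP7 libraries without passing the test. The group of n-R5s106, n-R5s118 and n-R5s130, the second in size, had 926 and 1243 counts, against 6535 and 3387 with IgG. Its log2 fold change was -0.99 (SE 0.62, edgeR adjusted p = 0.259), and its share of the family was 2.93% ± 0.380 in the LARP7 RIP and 5.61% ± 0.434 in the IgG RIP. The copy n-R5s195 on chromosome 3, the largest outside the array, had 109 and 148 counts, against 651 and 488 with IgG (log2 fold change -1.04, edgeR adjusted p = 0.121). With library totals both were called in edgeR, at -2.39 (adjusted p = 0.00161) and -2.40 (adjusted p = 0.000129). On that scale 46.4% of all rows were called lower, with the median row at -1.47, so these calls are no separate support. The array copies n-R5s136 and n-R5s109 had 0.33 and -0.21, and the group of n-R5s101 and n-R5s129 had -0.67, each with an adjusted p above 0.4. The copies n-R5s71, n-R5s33, n-R5s2, n-R5s5 and n-R5s88, which lie outside the array, and n-R5s156 and n-R5s29, which RefSeq does not place, had log2 fold changes between -1.14 and 0.62, with none called.

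**Figure D3:**
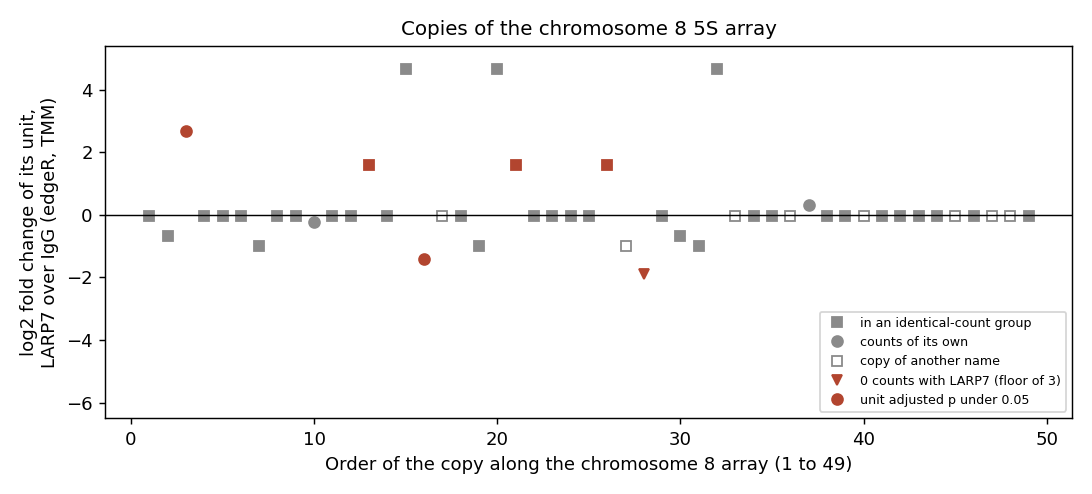
Log2 fold change, LARP7 over IgG (edgeR with TMM), of the unit each copy belongs to, by its order along the 49 copies of the chromosome 8 array. Copies of 1 group share 1 value, so they are not separate measurements. The units called are n-R5s102 (2.69), the n-R5s112 group (1.59), n-R5s115 (-1.41) and n-R5s127, drawn at a floor of 3 counts that covers counting error only, and the last 17 places hold the largest group except n-R5s136.

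Whether a unit differed relative to the family, rather than to the bulk of genes, was asked with the family sum, the unit included, as library size. The family sum itself was at -0.04 with TMM. Values on the 2 scales thus lay close together, and this is not an independent comparison. Of the 8 units called with TMM, 4 were called on that scale too, all of them higher. They were n-R5s102 (log2 fold change 2.76, adjusted p = 0.0204), n-R5s205 (2.40, adjusted p = 0.0127), n-R5s28 (2.57, adjusted p = 0.0186) and the n-R5s112 group (1.65, adjusted p = 0.0477) in edgeR. On this scale 13.4% of all 11707 rows were higher and 3.78% lower. The units n-R5s115, n-R5s151 and n-R5s13 were not called (adjusted p of 0.0690, 0.0695 and 0.0955), and n-R5s127 did not pass the filter. How RSEM divided reads between near-identical copies bears on each of these values. The posterior SD reached 0.334 of the count for n-R5s102, 0.141 for n-R5s205, 0.109 for n-R5s28 and 0.912 for a model of the n-R5s112 group. Its part in the differences between copies was not tested.

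**Figure D4:**
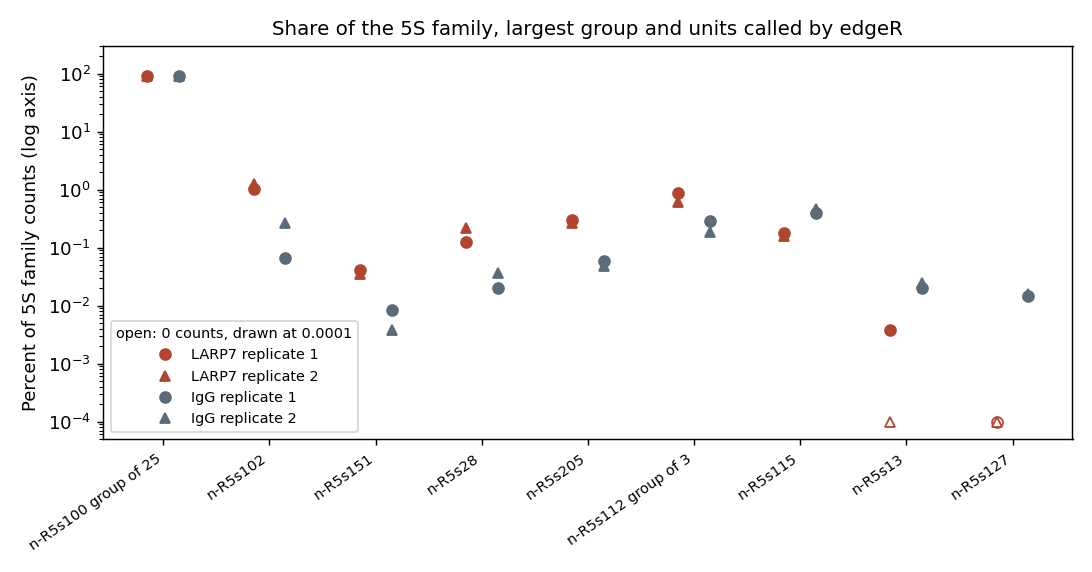
Percent of the 5S family's counts held by the largest group and by the 8 units called by edgeR, in each library, on a log axis. Open symbols are libraries with 0 counts, drawn at 0.0001. The largest group stays near 90% in all 4 libraries, while n-R5s102 holds 1.14% on average with the LARP7 antibody and 0.169% with IgG.

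Testing every model singly, with group members not summed, gave 10 higher and 3 lower of 54 models, against 14.5% and 9.69% of all 12234 rows. Members of a group repeat 1 measurement there.

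Few of the mRNAs for proteins that make or bind 5S rRNA stood out. Of 30 such genes 27 were tested, 3 higher and 1 lower, and their median log2 fold change was 0.12 (-0.05 over all rows). Of all rows tested with them, 14.4% were higher and 9.67% lower. Among the genes for 5S binding and 5S RNP assembly, 5 of 7 were tested and 0 were called in either direction. Rpl5, whose protein carries 5S rRNA into the ribosome, had 1867 and 1801 CPM with the LARP7 antibody, against 1190 and 1066 CPM with IgG (log2 fold change 0.70, edgeR adjusted p = 0.469). Its partner Rpl11 was far lower, at 3.62 and 5.26 CPM with the LARP7 antibody and 3.03 and 2.52 CPM with IgG (log2 fold change 0.67, edgeR adjusted p = 0.409). Which part of either gene the reads came from was not tested. Gtf3a, which encodes TFIIIA, had 2 and 1 counts with the LARP7 antibody, against 6 and 0 with IgG, too few to test.

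Among the 9 transcription genes tested, 2 were higher and 1 lower. Gtf3c4, for a subunit of TFIIIC, had 212 ± 48.9 CPM with the LARP7 antibody and 43.6 ± 10.8 CPM with IgG (edgeR log2 fold change 2.28 ± 0.58 SE, adjusted p = 0.0206), lost without IgG replicate 1 (adjusted p = 0.0803). Maf1, the repressor of polymerase III, had 20.5 ± 4.57 CPM with the LARP7 antibody and 7.97 ± 0.512 CPM with IgG (log2 fold change 1.37, edgeR adjusted p = 0.0346), a call that ended when LARP7 replicate 2 (adjusted p = 0.187), IgG replicate 1 (0.159) or IgG replicate 2 (0.0990) was left out. Gtf3c1, for the largest TFIIIC subunit, was lower, at 9.56 ± 0.375 CPM with the LARP7 antibody and 22.4 ± 4.55 CPM with IgG (log2 fold change -1.23, edgeR adjusted p = 0.0459), a call lost when any 1 of the 4 libraries was left out (adjusted p from 0.0893 to 0.244). Of 13 genes for subunits of polymerase III, only Polr3f was called (log2 fold change 1.67, edgeR adjusted p = 0.0412), which needed both LARP7 replicate 2 (without it, adjusted p = 0.397) and IgG replicate 1 (0.164). With library totals edgeR called 0 of the 27 higher and 10 lower, where 3.65% of all rows were higher and 46.5% lower. Maf1 then turned to -0.02.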

How the data were processed

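Per the labels' protocols, antibody-bound RNA from testis lysate was recovered on beads and made into small RNA libraries. The submitters' processing notes name mm10 and the tools RSEM, Bowtie2 and cutadapt. Their versions, settings and transcript set were not given in the sources used here. Per the file headers, the authors deposited for each gene model an expected count, the TPM, RSEM's posterior SD of the count (a score in reads here) and the model's length (a score in nt).

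Expected counts were summed over the 180 members or over models with identical counts, then rounded. EdgeR 4.0.16 (R 4.3.3) was run on all rows with filterByExpr, TMM, robust quasi-likelihood F tests, antibody as the only term, and Benjamini-Hochberg adjustment, with a threshold of 0.05. The fit was also run on simulated counts, with the same dispersion in every row and no shift in makeup between libraries. That run does not show how the fit does on libraries that differ as these do. SE is the unshrunk log2 fold change over the square root of F. Alternatives used library totals, RLE, DESeq2 1.42.0, no filter, limma 3.58.1 on log2(TPM + pseudocount), a replicate block, the family sum as library size, and each library left out. With a library left out, 1 group holds 1 library, which is assumed to vary like the other group. Replicates differed by more than sampling noise (chi-square per degree of freedom 124 and 53.7 for the LARP7 and IgG pairs).

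Units named were all groups, all units called and then those with the highest CPM, up to 25; named mRNAs were those called, Gtf3a, Rpl5 and Rpl11. Members, lists and tests were chosen with earlier results of these data known. The array's limits, its copies and the split of its places were set after seeing the data, with copies joined where starts lay within 10 kb. Positions come from RefSeq (GRCm38.p6).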

Additional observations from a re-analysis of the deposited data

How the results depend on the processing

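The family sum was not called in any count-based setting. Its log2 fold change of -0.04 turned to 0.0252 with RLE size factors and 0.31 for copies with counts of their own only, it ran from -0.32 to 0.18 with each library left out (0.18 without LARP7 replicate 1 and 0.12 without IgG replicate 2), and was called at -2.67 with limma on log2(TPM + 0.1). The cause of these changes was not tested. The share of counts differed by -0.947 percentage points, and by -1.63 as a share of TPM. Counts of calls below do not track the same genes. For limma, DESeq2, RLE, no filter, the replicate block and each library left out, shares over all rows are not given here. Their counts are thus not read as a result about these units or mRNAs. On log2(TPM + 0.1) the median of all 12181 rows was -1.24, and with library totals 46.4% of all rows in the unit fit were called lower. Units called higher numbered 5, and 1 with library totals, 0 and 1 with limma on TPM (pseudocount 1 and 0.1), 10 with each model tested singly, and 2 to 4 with a library left out. Units called lower numbered 3, and 11 with library totals, 1 with DESeq2 (which gave no adjusted p for n-R5s13 and n-R5s127), 1 without a filter, 0 and 14 with limma on TPM, 0 with the family sum as library size, and 0 to 2 with a library left out. Of the 27 mRNAs, 3 were called higher, and 0 with library totals, 1 with DESeq2, 0 and 0 with limma, and 0 to 3 with a library left out. Called lower were 1, and 10 with library totals, 0 with RLE, 0 with DESeq2, 0 and 14 with limma, and 0 to 1 with a library left out, where the 1, without IgG replicate 1, was Gtf3c3 (adjusted p = 0.0135) and not Gtf3c1. With the replicate block (same-numbered libraries deviated with r = 0.247 over 11666 genes, but 2 pairs do not show that the numbers pair them), the family sum was -0.06, 5 units were higher and 1 lower (n-R5s194 gained a call at an adjusted p of 0.0497, while n-R5s151, n-R5s13 and n-R5s127 lost theirs at 0.0531, 0.0704 and 0.0778), and 3 mRNAs were higher and 2 lower. Family sums of array copies (-0.04), of copies outside it (-0.01) and with the 8 models of other names (-0.05) were chosen after seeing the data. Depth limits the 27 units of at most 22.3 counts, which were not tested.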
